A study of Aspergillus niger with 6 samples.

Results

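The genes hypA to hypH of the filamentous fungus Aspergillus niger encode its named hydrophobins. They were taken as the rows whose name column holds one of these symbols, which gave 8 of the 11910 genes of the expression table. Their RNA levels were compared between a strain deleted for rpnR, given in the labels as delta-rpnR, and its control strain MA234.1. The labels number 3 libraries of mycelium for each strain, although the series' design text speaks of duplicates. Conidia of both strains were grown in shaken liquid medium with 1% glucose for 16 h at 30 °C, and the mycelium then spent 4 h in minimal medium with 25 mM xylose. The labels give no other allele of either strain and do not say whether the libraries came from separate cultures or transformants.

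Hydrophobins are small secreted proteins of filamentous fungi with a conserved pattern of cysteines. They assemble at the boundary between water and air, or on the fungal wall, into a film with a water-repellent face, and they are best known for coating aerial hyphae and conidia. By the title of the series rpnR encodes a likely transcription factor that is under the control of FlbA. In Aspergillus nidulans FlbA is a regulator of G protein signalling that favours conidiation over vegetative growth.

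Each level below is the authors' deposited value for the gene and strain, read as FPKM (fragment counts corrected for the length of the transcript and the size of the library). The table has 1 value per strain and none per library, so no SD can be attached to a level and no test between libraries could be run. A gene was called changed when the q-value of the authors' deposited table was under 0.05. Of the 11910 genes, 9234 were taken as tested by the authors and 2676 had a q of 1. The sums over all genes, 872090 FPKM in the deletion strain and 828095 FPKM in the control, were close to each other, and the median log2 ratio of the tested genes was 0.02. Log2 ratios set the deletion strain over the control after 1 FPKM was added to each, which makes the changes of low genes look smaller. The level of rpnR itself was not analysed here, so its loss was not checked.

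The 8 genes share several annotations, which are not independent of each other. All 8 carry a predicted secretion signal, against 1035 genes in the whole table. All 8 are classed as small secreted proteins, against 305, a class that lies within the genes with a secretion signal. The 8 are the only rows with a symbol in the name column and also the only rows with an entry for manual annotation. That entry reads hydrophobin and thus goes with the names by which the genes were taken. None of the 8 has a transmembrane domain, a KEGG entry or a place in a secondary metabolism cluster. The Pfam domain Hydrophobin was listed for 5 of them, hypB, hypC, hypD, hypE and hypF, and for no other gene of the table. The same 5 are the only genes given the Gene Ontology function of a structural constituent of the cell wall. The other 3, hypA, hypG and hypH, have no Pfam domain and rest on the manual annotation. No gene outside the 8 had the word hydrophobin in any annotation.

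Of the 7 tested hydrophobin genes, 2 were called lower in the deletion strain, hypB and hypC, and none was called higher. Over all tested genes 6.54% were called, 3.25% lower and 3.29% higher. With a q under 0.1, 4 of the 7 came under the threshold as lower genes, against 4.58% of all tested genes. With a q under 0.01 none of the 7 did, against 1.38%. Values lay below the control for 6 of the 7, against 48.7% of all tested genes. The median log2 ratio of the 7 was -1.61. The 8 genes come from the same libraries and are not replicates of each other, so these counts describe the family in these cultures and carry no test of their own.

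The gene hypF held the highest level of the family in the control and had the lowest ratio. It stood at 1.91 FPKM in the deletion strain and at 146 FPKM in the control, a log2 ratio of -5.66. Its control level was thus 76.7 times that of the deletion strain. In the control hypF was above 92.5% of all genes of the table, while in the deletion strain it was above 28.8%. In the authors' deposited table its q was 0.0564, so it was not called.

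The gene hypB fell to 0.843 FPKM in the deletion strain, against 10.04 FPKM in the control. Its log2 ratio was -2.58, and its q in the authors' deposited table, 0.0486, was just under the threshold. The gene hypC fell to 5.39 FPKM in the deletion strain, against 18.5 FPKM in the control, a log2 ratio of -1.61 with a q of 0.0195 in the authors' deposited table. Both also met the authors' own rule for changed genes, which adds a fold of at least 2 and a level of at least 10 in 1 strain, and which 2.73% of all tested genes met as lower genes.

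The gene hypH, which lacks the Pfam domain, had nearly the same levels as hypC. It was at 5.69 FPKM in the deletion strain and 20.2 FPKM in the control, with a log2 ratio of -1.66. Its q in the authors' deposited table was 0.0665, so of this pair with like levels and ratios hypC was called and hypH was not.

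The genes hypD and hypE had levels nearer to those of the control. The level of hypD was 13.6 FPKM in the deletion strain and 19.6 FPKM in the control (log2 ratio -0.49, q 0.708 in the authors' deposited table). That of hypE was 13.8 FPKM in the deletion strain and 14.4 FPKM in the control (log2 ratio -0.05, q 0.977 in the authors' deposited table). Without values per library these q-values do not show that the levels were equal.

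The genes hypG and hypA were the lowest of the family in the control, and only they had a higher value in the deletion strain. The value of hypG was 1.18 FPKM in the deletion strain and 0.604 FPKM in the control, with a q of 0.908 in the authors' deposited table. That of hypA was 0.845 FPKM in the deletion strain and 0.171 FPKM in the control, and hypA is among the genes with a q of 1, taken as not tested. The depth behind these low values is unknown, and no direction is read from them.

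**Figure D1:**
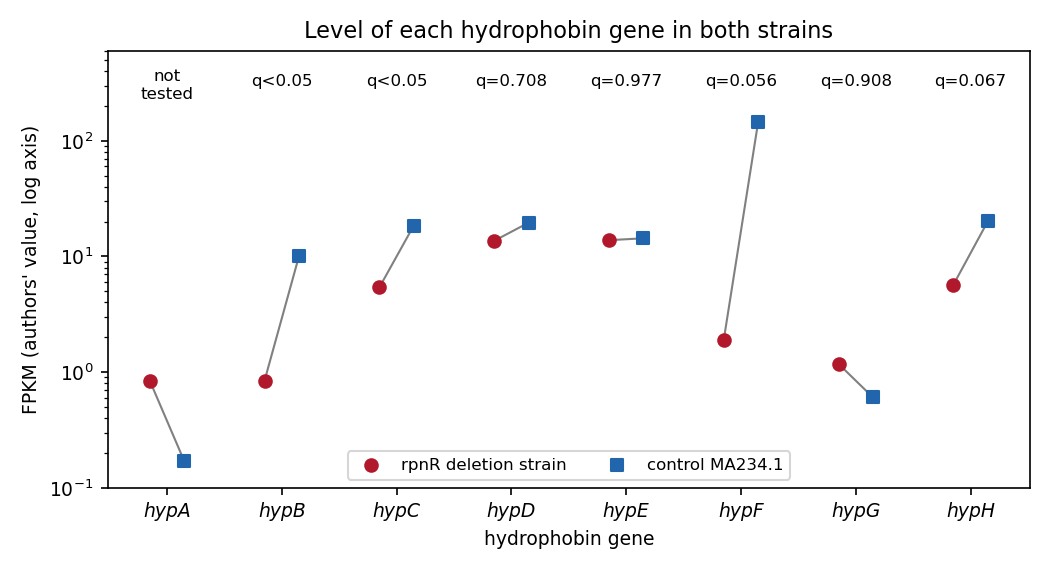
Authors' FPKM (log axis) of each hydrophobin gene in the rpnR deletion strain (red circles) and the control MA234.1 (blue squares), 1 value per strain with no error available. Text above each pair reads q<0.05 for the called genes hypB and hypC, not tested for hypA, and gives the authors' q-value for the others. The control values of hypB, hypC, hypF and hypH lie far above those of the deletion strain, hypD and hypE are near level, and hypA and hypG are low in both.

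The order of the levels differed between the strains. In the deletion strain it ran hypE, hypD, hypH, hypC, hypF, hypG, hypA and hypB from high to low, and the first was at 13.8 FPKM. In the control it ran hypF, hypH, hypD, hypC, hypE, hypB, hypG and hypA. In the deletion strain hypE and hypD differed by little, as did hypH and hypC, and hypA and hypB. In the control hypH, hypD, hypC and hypE lay between 14.4 and 20.2 FPKM. Whether such neighbours differ beyond the spread of the libraries cannot be told from 1 value each. By level, hypF had rank 5 of 8 in the deletion strain and rank 1 in the control.

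Summed over the 8 genes, hydrophobin RNA was 43.3 FPKM in the deletion strain and 229.8 FPKM in the control, a ratio of 0.189. Most of that difference lay in hypF, which made up 4.41% of the sum in the deletion strain and 63.7% in the control. Without hypF the sums were 41.4 FPKM in the deletion strain and 83.4 FPKM in the control, a ratio of 0.497. In the deletion strain hypE and hypD supplied the largest parts, 31.9% and 31.5% of the sum, where in the control they supplied 6.25% and 8.53%. In bulk RNA, fewer cells that express a gene and less RNA per cell cannot be told apart.

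**Figure D2:**
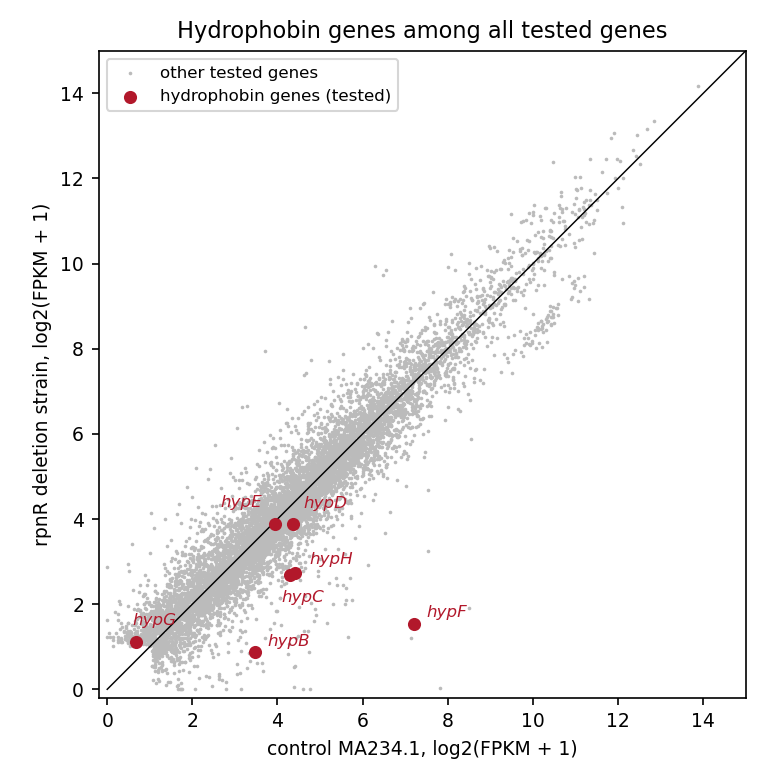
Log2(FPKM + 1) in the rpnR deletion strain (vertical) against the control MA234.1 (horizontal) for the 9234 tested genes; red points are the 7 tested hydrophobin genes and the line marks equal values. The point of hypF (log2 ratio -5.66) lies far below the line, hypB, hypC and hypH lie nearer to it, and hypD, hypE and hypG are within the main cloud.

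The genes hypF, hypB, hypH and hypC had the largest falls and the lowest q-values of the family. Among them the size of the fall and the q-value did not run in the same order. The q of hypC, with a log2 ratio of -1.61, was below that of hypF, with one of -5.66. Only 3 other tested genes had a log2 ratio below that of hypF. Of these, the proteins numbered 1142051 (2.75 FPKM in the deletion strain, 360 FPKM in the control) and 1142053 (1.30 and 139 FPKM) were called, each with a q of 0.0027 in the authors' deposited table. The third, a C2H2 zinc finger protein numbered 1140545, was at 0.0190 FPKM in the deletion strain and 225 FPKM in the control. Its q in the authors' deposited table was 0.528, so it was not called either. Of the 49 tested genes with a log2 ratio at or below that of hypB, itself included, 39 were called, and of the 172 at or below that of hypC, 142 were called. Most falls at least as large as that of hypC were thus called, and hypF and hypH belong to the minority that were not. Of the 4 genes at or below the ratio of hypF, itself included, 2 were called.

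**Figure D3:**
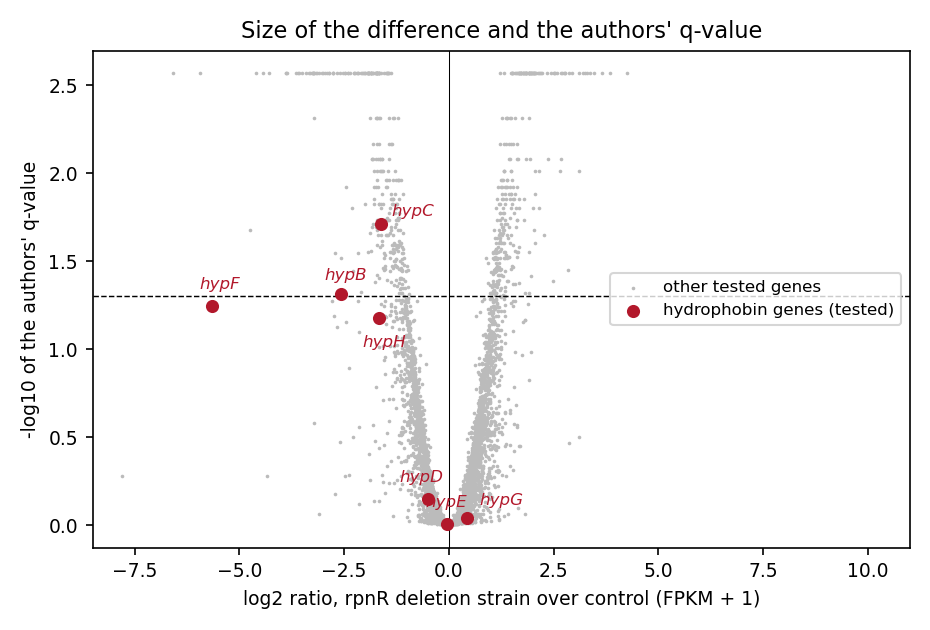
Minus log10 of the authors' q-value (vertical) against the log2 ratio of the rpnR deletion strain over the control (horizontal) for the 9234 tested genes; red points are the 7 tested hydrophobin genes and the dashed line marks a q of 0.05. The points of hypB (0.0486) and hypC (0.0195) lie above the line, and those of hypF (0.0564) and hypH (0.0665) lie just below it.

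The genes with levels most like those of the called members hypB and hypC, and of hypF, which was not called, were found by the distance between log2(FPKM + 1) values, a likeness over only 2 values, 1 per strain. Nearest to hypC was a small secreted protein with no Pfam domain, 1175603, at 5.59 FPKM in the deletion strain and 19.1 FPKM in the control. It was followed by a pepsin-type aspartic peptidase with a secretion signal, 1118349, at 5.97 and 17.9 FPKM in the same order, and both were called lower. Nearest to hypB were a transporter of the ABC type, 1109705, at 0.798 FPKM in the deletion strain and 9.08 FPKM in the control, which was called, and 1134518, with no named domain, at 0.576 and 9.28 FPKM, which was not. Nearest to hypF were 1142053 and 1142051, described above, neither with a secretion signal or a named domain.

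The other genes classed as small secreted proteins, the group to which all hydrophobins belong, did not lie lower as a whole. Of 199 tested, 12 were called lower (6.03%) and 9 higher (4.52%), against 3.25% and 3.29% of all tested genes. Calls in both directions were thus more frequent than over all tested genes. Values lay below the control for 93 (46.7%), against 48.7% of all tested genes, and the median log2 ratio was 0.04. Together they summed to 52188 FPKM in the deletion strain and 47092 FPKM in the control. Among all 206 tested small secreted proteins ordered by log2 ratio, hypF had the lowest ratio, and hypB, hypH and hypC had ranks 5, 11 and 15 from the bottom. The called members with the largest change were a lipase, 1145520 (248 FPKM in the deletion strain, 12.1 FPKM in the control), a protein with an antifungal protein domain, 1183897 (852 and 88.6 FPKM), and a peptidase of the A4 type, 1142023 (4.21 and 47.5 FPKM). The lipase and the antifungal protein rose and the peptidase fell.

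Other proteins of the hyphal surface were listed by their domains, with the hydrophobins left out. Of 18 tested genes for wall proteins with CFEM, WSC, HsbA or GPI-anchored domains, 1 was called lower (5.56%) and none higher. Over all tested genes 3.25% were called lower. Values lay below the control for 11 of the 18 (61.1%), against 48.7% of all tested genes, and the median log2 ratio was -0.10. The called gene, the small secreted CFEM protein 1148410, fell to 185 FPKM in the deletion strain, against 408 FPKM in the control. The HsbA family is named after a hydrophobic surface binding protein of Aspergillus oryzae. Its most abundant gene here, 1141551, picked once its values were known, was at 2485 FPKM in the deletion strain and 2353 FPKM in the control and was not called.

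Of 19 tested genes for making, binding or cutting chitin, the wall polymer, 4 were called lower (21.1%) and none higher, against 3.25% called lower over all tested genes. Values lay below the control for 13 of the 19 (68.4%), against 48.7% of all tested genes, and the median log2 ratio was -0.36. The 4 are all chitinases by product name, the 3 with the largest change being 1129677, 1165650 and 1158625. The lowest of these by ratio, 1129677, was at 0.548 FPKM in the deletion strain and 10.5 FPKM in the control, levels close to those of hypB. Other tested chitinases were not called. Of these, 1088919, 1177639 and 1182017 had values above the control, and 1152313, 1160118, 1161341 and 1180887 had values below it. None of the tested chitin synthases was called. None of the 4 tested genes matched for glucan enzymes was called either, against 6.54% of all tested genes. The synthase of 1,3-beta-glucan, 1098273, was at 235 FPKM in the deletion strain and 279 FPKM in the control. The glucan list was matched by annotation text and also holds the endoglucanases 1102814 and 1160649. Both carry the domain Glyco_hydro_6 and EC 3.2.1.4, the number of cellulases, and are not read as enzymes of the fungal wall. An endoglucanase of the list, 1102814, was at 47.9 FPKM in the deletion strain and 46.5 FPKM in the control.

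**Figure D4:**
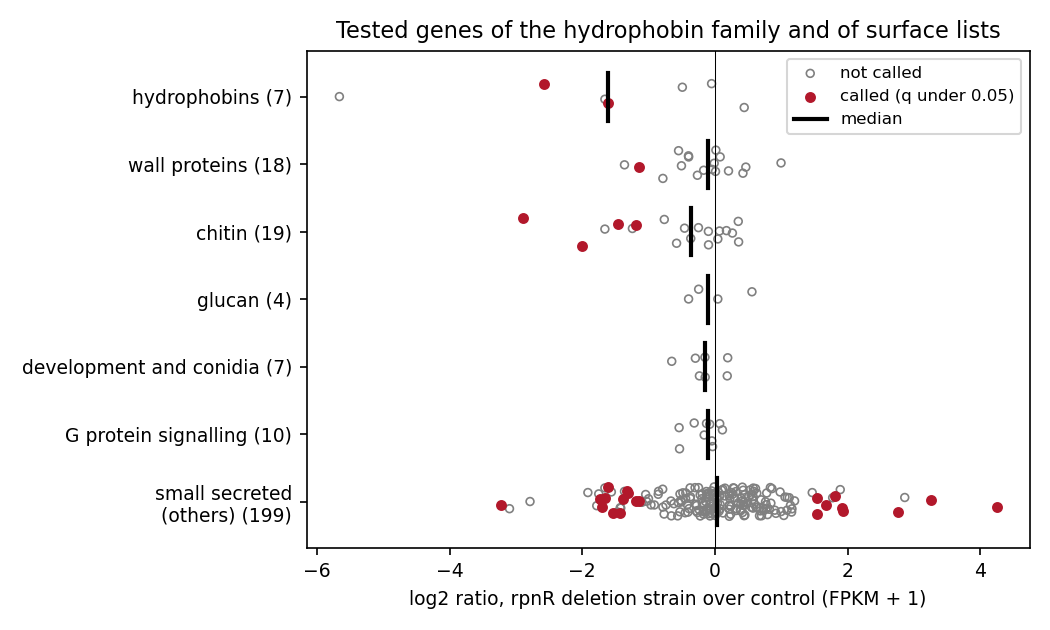
Log2 ratio of the rpnR deletion strain over the control MA234.1 for each tested gene of the hydrophobin family and of 6 lists (number tested in brackets); filled red points are called genes, open points are not, and vertical bars mark medians. The bar of the hydrophobins lies at -1.61, and those of the lists lie between -0.36 and 0.04.

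Lists for development and for G protein signalling were small, and with 6.54% of all tested genes called, a count of 0 sets neither apart from other genes. The list for development and conidia matched 7 genes, all tested, and none of them marks conidia or conidiophores as a cell type. The names of the classic regulators of conidiation were among the text patterns, but no gene of the list was identified as one of them. Of the 7, 4 carry the velvet domain of fungal developmental regulators. None of the 7 was called, 5 had values below the control (71.4%, against 48.7% of all tested genes), and the median log2 ratio was -0.15. The most abundant velvet gene, 1041677, was at 73.9 FPKM in the deletion strain and 81.9 FPKM in the control, and an amino acid permease that also matches a spore permease domain, 1187432, was at 14.2 and 12.3 FPKM. Of 10 tested genes for G protein subunits and RGS proteins, the class to which FlbA belongs, none was called. Values lay below the control for 8 of the 10 (80%), against 48.7% of all tested genes, and the median log2 ratio was -0.10. The gamma subunit 46690 was at 568 FPKM in the deletion strain and 600.3 FPKM in the control, and an alpha subunit, 1041976, was at 254 and 242 FPKM. Whether the cultures held conidia, and their part in the hydrophobin levels, was not tested.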

How the data were processed

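RNA of mycelium was sequenced from an rpnR deletion strain and from the control MA234.1. Among the tools in the submitters' processing notes, given with no role, are Cuffdiff 2.2.1, Cufflinks, TopHat2, Trimmomatic and CASAVA 1.8.3. The build of the genome is not given in the sources used here. For each gene the authors deposited 1 value a strain, read as the authors' FPKM because Cuffdiff reports that unit, and the authors' deposited q-value per gene. Depth is unknown, so no interval or floor was computed.

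Genes with a q of 1 (their highest value was 7.50 FPKM) were taken as not tested. A gene was called at a q under 0.05, and the authors' rule for changed genes was recomputed and differed in 0 rows. Log2 ratios used a pseudocount of 1, in Python 3.11.15 with pandas 2.3.3, and the functions were tested on simulated data. None of the 8 symbols or protein numbers matched the RefSeq table, so neither coordinates nor sequences are given.

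Lists were made by text patterns over the annotations. Named are the members, up to 3 called genes per list, the largest log2 ratios in either direction first (where a list had no call, the 2 of highest mean), and the 2 genes nearest in level to hypB, hypC and hypF. The members and lists were chosen with earlier results of these data known.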

Additional observations from a re-analysis of the deposited data

How the results depend on the processing

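The number of hydrophobin genes called lower was 0 at a q under 0.01 and 4 at a q under 0.1 (hypB, hypC, hypF and hypH), where 1.38% and 4.58% of tested genes were called lower. It was 2 by the authors' rule and 2 among genes averaging 5 FPKM or more over both strains. Both settings keep the same q-values, and hypB met each level limit only through its control value, so neither is separate support. The 6 lower values stayed 6 after centring and with the filter at a mean of 5 FPKM, which hypF too passed only through its control value. The median log2 ratio of the 7 tested genes, -1.61, was -1.76 with a pseudocount of 0.1 and -1.18 with one of 5. It was -1.05 with hypA added and also -1.05 without hypF, since hypC and hypD then hold the middle. The ratio of the summed levels was 0.497 without hypF, an alternative chosen after the data were seen, against 0.189. All 24 single-gene ratios under the 3 other settings kept their direction. A pseudocount cannot change the direction of a single ratio. Centring took off 0.0156, less than the size of the smallest member ratio, that of hypE (-0.05). It could thus reverse none of the ratios, and the count of 6 lower values was equally fixed under centring. No direction is read for hypA and hypG. The pseudocount and centring thus bear on the size of the ratios, which for hypF lay between -6.19 and -4.45. The number of genes called lower depended on the q threshold. No paired analysis was possible because the table holds 1 value per strain, and for the same reason no library could be left out and no count model fitted.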
